A study of Rattus norvegicus with 3 samples.

Results

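The Spetex-2 and Smok2a peaks are the HILS1 peaks of rat spermatid chromatin that lie nearest to genes whose names begin with Spetex or Smok. They were chosen by the nearest gene name in the deposited peak list, and the gene names were proposed with results of this list known, so the counts and values below are a description. They number 210 of 32731 peaks (0.642%). Of these, 138 were nearest to Smok2a on chromosome 1, and 72 were nearest to 4 Spetex-2 names on chromosome 15, with 33 at Spetex-2F, 21 at Spetex-2B, 12 at Spetex-2A and 6 at Spetex-2E. HILS1 is a linker histone that spermatids make while they elongate and condense. It was mapped by chromatin immunoprecipitation and sequencing (ChIP-seq) in 2 HILS1 ChIP replicates, and 1 Input DNA library served as the control. All samples came from rats of 50 to 60 days and were labelled as elongating and condensing spermatids, but the study's methods describe nuclei prepared from testis, and no expression data were at hand with which to check the cell type. The list holds the regions that both ChIP replicates shared, with 1 value of each kind per peak, so no spread between replicates can be given, and the read depth is not known from it.

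Smok2a encodes a sperm motility kinase. In mouse, Smok kinases belong to the signalling that governs the beat of the sperm flagellum, and an altered Smok copy of the t complex is the responder of transmission ratio distortion. Spetex-2 genes form a multicopy family of the rat that is expressed in spermatids. Many genes that are switched on after meiosis are targets of the activator CREM, which binds the cAMP response element, a palindrome with the letters TGACGTCA. Linker histones sit where DNA enters and leaves the nucleosome.

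The RefSeq promoters of 4 Spetex-2 genes are shown first, because they are nearly alike and because 3 of the promoter peaks described below are annotated to Spetex-2 genes. No peak covered the Spetex-2B start site. Each promoter runs 5′ to 3′ over 300 bases, the start site follows base 250, and capitals mark TGACGTCA. They come from the build GRCr8, at chr15:5810076-5810375 (minus strand) for Spetex2b, chr15:5883203-5883502 (minus strand) for Spetex2d, chr15:7244269-7244568 (plus strand) for Spetex2e and chr15:5460557-5460856 (minus strand) for Spetex2f, whereas the peaks are on rn5, so peaks and promoters were not laid over each other by position. Spetex2b, Spetex2e and Spetex2f are the GRCr8 symbols of the genes that the peak list calls Spetex-2B, Spetex-2E and Spetex-2F.
Spetex2b: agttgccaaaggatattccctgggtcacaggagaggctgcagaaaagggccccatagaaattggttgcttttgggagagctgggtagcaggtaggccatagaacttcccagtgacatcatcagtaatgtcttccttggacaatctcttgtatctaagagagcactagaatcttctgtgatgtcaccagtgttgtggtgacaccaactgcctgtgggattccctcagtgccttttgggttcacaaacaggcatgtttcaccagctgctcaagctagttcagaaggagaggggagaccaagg
Spetex2d: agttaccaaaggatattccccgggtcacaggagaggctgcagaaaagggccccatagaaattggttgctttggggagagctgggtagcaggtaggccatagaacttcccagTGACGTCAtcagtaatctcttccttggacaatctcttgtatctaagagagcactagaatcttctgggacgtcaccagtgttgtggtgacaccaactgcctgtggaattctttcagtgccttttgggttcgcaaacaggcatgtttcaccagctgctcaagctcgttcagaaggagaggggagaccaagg
Spetex2e: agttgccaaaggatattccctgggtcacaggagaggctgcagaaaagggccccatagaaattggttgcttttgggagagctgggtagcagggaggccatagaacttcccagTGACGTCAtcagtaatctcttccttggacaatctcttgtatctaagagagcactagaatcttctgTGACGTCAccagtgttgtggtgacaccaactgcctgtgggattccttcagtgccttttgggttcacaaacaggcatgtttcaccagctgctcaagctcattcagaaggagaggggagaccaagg
Spetex2f: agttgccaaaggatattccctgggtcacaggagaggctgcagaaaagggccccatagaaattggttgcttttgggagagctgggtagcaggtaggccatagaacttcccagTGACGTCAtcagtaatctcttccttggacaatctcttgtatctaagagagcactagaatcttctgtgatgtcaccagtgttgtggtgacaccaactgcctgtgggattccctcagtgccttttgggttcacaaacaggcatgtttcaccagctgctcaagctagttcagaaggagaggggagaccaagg

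The promoters of Spetex2b, Spetex2c, Spetex2d, Spetex2e, Spetex2f and Spetex2h matched each other at 95.7% to 99.3% of 300 bases, with 2 to 13 mismatches in each of 15 pairs compared without gaps. Spetex2b and Spetex2f were the closest pair, and Spetex2d and Spetex2h the farthest apart. The letters TGACGTCA, the same on both strands, stood 139 and 74 bases before the start site in Spetex2e and Spetex2c. Spetex2d and Spetex2f held them only at 139 bases and Spetex2h only at 74 bases. Spetex2b held at both places TGACATCA, which differs by a base and was searched on both strands. In Spetex2g, whose annotated start site is shifted, TGACGTCA stood 96 bases before the start site and TGACATCA stood 31 bases before it. Among all 33469 promoters of the same length in the table, 612 (1.83%) held TGACGTCA, 14 (0.0418%) held it at 2 or more places, and 1451 (4.34%) held TGACATCA. Matches of this kind are letters in a window and say nothing of what binds there. Of the 5 gene names, 4 could be matched to a RefSeq symbol, and 3 of those had a promoter in the table.

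The peaks fell into 3 dense loci, and no peak of another gene lay inside any of them. Peaks are named by the nearest start site, so at each Smok2a copy, with 1 start site, this follows from the naming. Smok2a copy 1, at chr1:55255786-55539916 of rn5, held 65 peaks over 284 kb. Smok2a copy 2, at chr1:56043824-56577919, held 73 peaks over 534 kb. The Spetex-2 cluster, at chr15:9451379-9762426, held 72 peaks over 311 kb. This gave 22.9, 13.7 and 23.1 peaks per 100 kb, against 1.13 in the whole list. Peaks covered 26.6%, 15.0% and 25.4% of the 3 spans, against 1.13% over the whole list. Each span was cut at its first and last peak, while the list was taken along the chromosomes. The copies are numbered here by position.

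**Figure D1:**
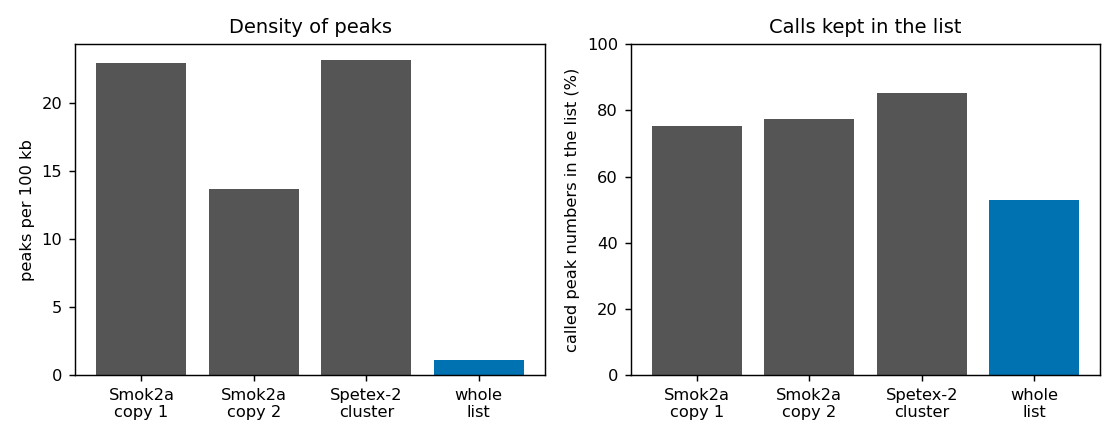
Left, HILS1 peaks per 100 kb in the 3 loci (grey bars) and in the whole list (blue bar); right, the share of the consecutive MACS peak numbers across each locus that are present in the list, with each bar a single value without error. The loci stand at 13.7 to 23.1 peaks per 100 kb against 1.13 in the list, and 75.4% to 85.1% of their numbers are present against 53.0%.

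Neighbouring peaks lay a median of 782 bp apart in copy 1 (95% interval 337 to 1424, from order statistics), 1369 bp in copy 2 (728 to 3035) and 777 bp in the Spetex-2 cluster (419 to 1626), against 4740 bp in the whole list. Gaps under 1 kb made up 56.3%, 48.6% and 53.5% of the gaps in the 3 loci, against 36.3% in the list. The widest gap inside copy 1 was 37104 bp, and inside the Spetex-2 cluster 32779 bp. Copy 2 was split by a gap of 155170 bp into a part around the start site and a remote part. In the list each peak carries the number of the called peak it came from, and these numbers run along the chromosomes. Across the Spetex-2 cluster 57 of 67 such numbers (85.1%) were present, across copy 2 62 of 80 (77.5%) and across copy 1 49 of 65 (75.4%), against 24679 of 46580 (53.0%) in the whole list. What became of the missing numbers is not recorded in the list.

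By number of peaks, Smok2a was the gene of rank 8 of 4777 with a peak, Spetex-2F of rank 133, Spetex-2B of rank 283, Spetex-2A of rank 602 and Spetex-2E of rank 1190, where the median gene had 3 peaks. The windows of 1 Mb that hold these loci were crowded also by their neighbours. The window at 9 to 10 Mb of chromosome 15 held 141 peaks (72 of them at Spetex-2 names) and ranked 8 of 2565 windows with a peak. On chromosome 1, the window at 56 to 57 Mb held 138 peaks (73 at Smok2a) and ranked 13, and the window at 55 to 56 Mb held 84 peaks (65 at Smok2a) and ranked 33. Peaks named for Vom2r genes, which encode vomeronasal type 2 receptors, came next to both Smok2a copies. The next peak after copy 1 was 95.8 kb away at Vom2r7. The next peak after copy 2 was 5.04 kb away at Vom2r9, and its fold enrichment of 21.3 was close to the 19.4 of the last Smok2a peak, so the outer edge of copy 2 is set by the naming of the nearest gene. The Spetex-2 cluster lay between peaks named for Cd99l2, 13.7 kb before it and 83.4 kb after it.

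Fold enrichment here is the height of a called peak over the MACS background, a linear ratio. All 32731 folds of the list were whole multiples of 0.926 within 0.02, as with 1 background value for every peak. A background set peak by peak from the local input is thus not seen in them. How copy number bears on the folds of these loci was not tested. The 210 peaks ranged from 8.33 to 98.1 with a median of 18.5 (95% interval 17.6 to 19.4), and the middle 50% of them lay between 13.9 and 22.2. In the whole list the range was 7.41 to 205 with a median of 25.0. Below that list median were 164 of the 210 peaks, and above it 45. A fold of at least 16 was reached by 134 peaks (63.8%, 95% Wilson interval 57.1% to 70.0%), against 81.6% of the list. A false discovery rate of at most 10% was met by 156 (74.3%), against 84.7% of the list. Both shares were below those of the list.

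Median folds are given here by gene name. The median fold was 22.2 (19.4 to 32.4) at Spetex-2F, 19.9 (14.8 to 28.7) at Spetex-2A, 18.1 (16.7 to 19.4) at Smok2a, 15.7 (13.9 to 18.5) at Spetex-2B and 15.3 (13.0 to 20.4) at Spetex-2E. The intervals of all neighbours in this order overlap. The interval of Spetex-2F begins at 19.4, just above the 18.5 at which that of Spetex-2B ends. The 33 Spetex-2F peaks came from 21 called peaks and the 21 Spetex-2B peaks from 19. Whether the genes differ in height was not tested. A fold of at least 16 was reached by 27 of 33 peaks (81.8%) at Spetex-2F, a share near the 81.6% of the list, by 10 of 21 (47.6%) at Spetex-2B and by 2 of 6 at Spetex-2E. All 6 Spetex-2E peaks were below the list median, with folds of 13.0, 13.9, 14.8, 15.7, 16.7 and 20.4. Intervals cover counting error only, and since segments of a called peak share 1 fold they are too narrow.

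**Figure D2:**
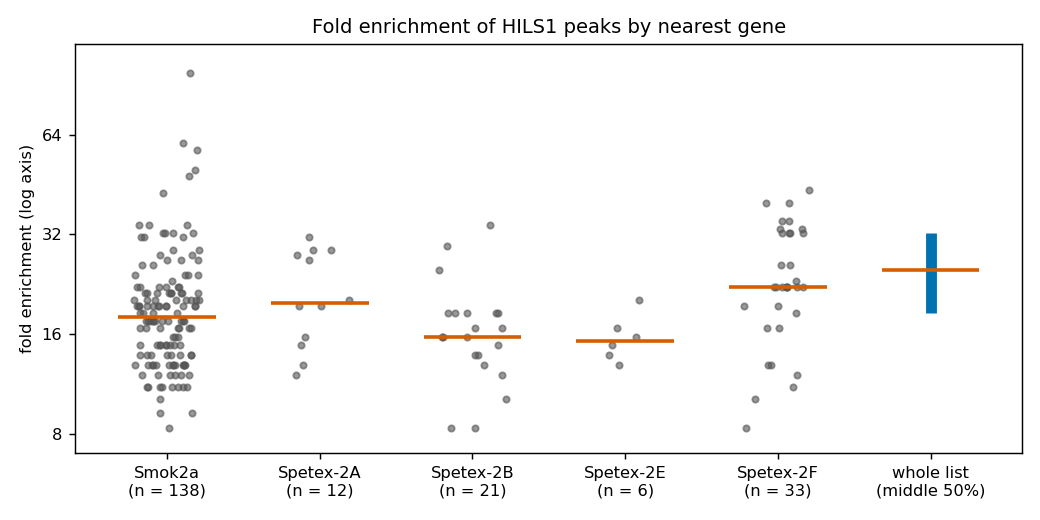
Fold enrichment (log axis) of every Spetex-2 and Smok2a peak by nearest gene, 1 point per peak, with medians as orange lines; the blue bar is the middle 50% of the whole list. The gene medians run from 15.3 to 22.2, all below the list median of 25.0, and the points over 40 are 6 Smok2a peaks and 1 Spetex-2F peak.

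Peak length hardly differed from the list, with a median of 797 bp (724 to 906) and a range of 130 to 3687 bp, against a list median of 776 bp. The longest peaks were a Smok2a peak of 3687 bp at 32.7 kb upstream of the copy 2 start site, with a fold of 25.9, and a Smok2a peak of 3654 bp in an intron of copy 1, with a fold of 31.5. At Spetex-2F the longest was a peak of 3537 bp annotated with the satellite RatSatRep1. In all 10 of 210 peaks (4.76%) were over 3000 bp, against 2.33% of the list. The 210 peaks came from 168 called peaks. Of these 29 (17.3%) appear as several segments, against 22.9% in the list, and the one with the most, 4 segments over 9.17 kb at Spetex-2F, had a fold of 32.4.

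Repeats also differed from the list. LINE-1 elements are retrotransposons that hold most HILS1 peaks of the list. At the Spetex-2 and Smok2a loci 39 of 210 peaks were in LINE-1 (18.6%, 95% Wilson interval 13.9% to 24.4%), against 25398 of 32731 (77.6%) in the list. In no annotated repeat were 137 of the 210 peaks (65.2%, 58.6% to 71.4%), against 11.3% of the list. The list gives 1 annotation per peak, so a peak in no annotated repeat may still hold repeats along its length. Smok2a had 21 peaks in LINE-1 (15.2%) and 103 in no repeat (74.6%), alike in copy 1 (75.4% in no repeat) and copy 2 (74.0%). The Spetex-2 cluster had 18 in LINE-1 (25.0%) and 34 in no repeat (47.2%). LTR retrotransposons took 15 of its 72 peaks (20.8%), against 5 of 138 (3.62%) at Smok2a and 4.40% of the list. The other repeat peaks were few, with 6 in SINEs, 3 in a satellite, 4 in simple or low-complexity repeats and 1 in another repeat.

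**Figure D3:**
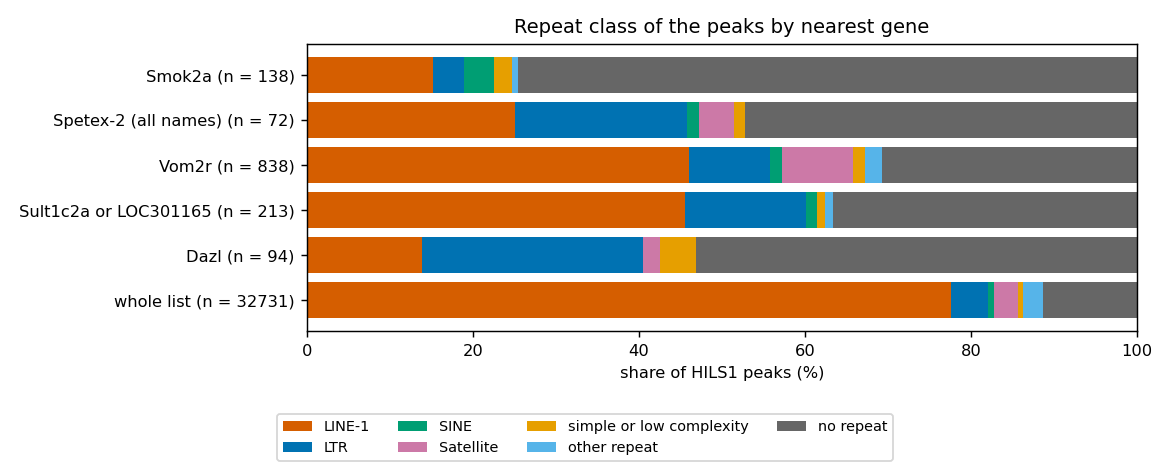
Share of HILS1 peaks by repeat class (horizontal axis, percent) for the Smok2a and Spetex-2 peaks, 3 other groups of peaks by nearest gene and the whole list. The orange LINE-1 share is 15.2% at Smok2a and 25.0% at Spetex-2 names against 77.6% in the list, and the grey share in no repeat is 74.6% and 47.2% against 11.3%.

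The LINE-1 elements at these genes were also of other kinds than in the list. The subfamilies L1_Rn, L1_Rat1 and RNHAL1 made up 7 of the 39 LINE-1 peaks (17.9%, 8.98% to 32.7%), which were 6 of 21 at Smok2a and 1 of 18 at Spetex-2 names, against 22475 of 25398 (88.5%) in the list. All 7 of these were L1_Rn, and their folds of 27.8 to 42.6 had a median of 34.3, against 30.6 for L1_Rn in the list. Of these 7 peaks, 3 are segments of 1 called peak with a fold of 34.3. By called peak the folds were 27.8, 28.7, 33.3, 34.3 and 42.6. Some further names stood mostly at one family. Lx5 was found under 6 Smok2a peaks and Lx2B under 6 Spetex-2 peaks, of 35 and 81 peaks with these names in the list. L1_Mur3 was under 6 Spetex-2 peaks and 1 Smok2a peak, of 63 in the list. Among LTR elements, the internal sequence RLTR14-int was under 6 Spetex-2 peaks of 18 in the list (33.3%), and RNLTR14-int under 3 of 6. RLTR14-int peaks were low, with folds of 8.33 to 22.2, whereas the 3 RNLTR14-int peaks had 25.0 to 32.4. These names were singled out after their counts were seen.

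Fold enrichment is given here for peaks in LINE-1 and in no repeat apart. Peaks in no repeat had a median fold of 18.5 (17.6 to 19.4) at the Spetex-2 and Smok2a loci, against 16.7 (16.7 to 17.6) in the list. Peaks in LINE-1 had a median fold of 20.4 (14.8 to 27.8) at these loci, against 26.9 in the list, a value inside that interval. In no repeat, 67.9% (59.7% to 75.1%) of the peaks at these loci reached a fold of 16, against 54.7% in the list. A false discovery rate of at most 10% was met by 76.6% of them, against 65.0%. In LINE-1 both shares were lower than in the list, 61.5% against 88.6% and 76.9% against 89.7%. The lower median over all 210 peaks thus stands beside a larger share of peaks in no repeat, a class that is low in the whole list. How far the one accounts for the other was not tested.

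Other groups of peaks in the list with a LINE-1 share below that of the list were those nearest to Vom2r receptor genes (838 peaks), to the sulfotransferase gene Sult1c2a or LOC301165 (213) and to Dazl (94), which encodes an RNA-binding protein of germ cells. The LINE-1 share was 18.6% at the Spetex-2 and Smok2a loci, against 46.1% (42.7% to 49.4%) at Vom2r names, 45.5% (39.0% to 52.2%) at Sult1c2a or LOC301165 and 13.8% (8.26% to 22.2%) at Dazl. The share in no repeat was 65.2%, against 30.7%, 36.6% and 53.2%. In LTR elements were 20.8% of the peaks at Spetex-2 names and 3.62% at Smok2a, against 9.67%, 14.6% and 26.6%. The median fold was 18.5, against 19.4, 14.8 and 25.9. The receptor genes next to Smok2a were closer to it than the Vom2r names as a whole, since Vom2r9 had 75 peaks with 21.3% in LINE-1, 64.0% in no repeat and a median fold of 18.5, and Vom2r7 had 18 peaks with 11.1% in LINE-1. Cd99l2, which flanks the Spetex-2 cluster, had 55 peaks with 21.8% in LINE-1, 12.7% in LTR elements, 56.4% in no repeat and a median fold of 16.7. The low LINE-1 share was thus not particular to the spermatid genes, and their neighbours had it too. An LTR share above that of the list was not particular to Spetex-2 either.

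By region 148 of the 210 peaks (70.5%) were intergenic, 55 (26.2%) intronic, 5 (2.38%) at a promoter, 1 (0.476%) in an exon and 1 (0.476%) at a transcription termination site. The list had 85.9% intergenic, 13.9% intronic, 26 (0.0794%) promoter, 17 (0.0519%) exon and 15 (0.0458%) termination site peaks, so 5 of its 26 promoter peaks were at these genes. Peaks in an intron, exon, promoter or termination site made up 29.5% (23.8% to 36.0%), against 14.1% of the list. At Smok2a this share was 13.8% and at Spetex-2 names 59.7%. These shares rest on the transcript models of the list, whose placement was not tested. Of the 55 intronic peaks, 15 were annotated to Smok2a, 28 to Spetex2e and 12 to Spetex2h. Intronic peaks at these genes had a median fold of 17.6 (15.7 to 18.5), against 26.9 for introns in the list, and intergenic ones 19.4 (17.6 to 20.4), against 25.0. Repeat make-up differed as well. Of the intronic peaks 25.5% were in LINE-1 and 43.6% in no repeat, against 88.1% and 5.41% in the list. Of the intergenic ones 16.9% and 71.6% were, against 76.1% and 12.1%. How far this bears on the medians was not tested. The 7 peaks in promoters, in the exon and at the termination site had folds of 17.6 to 28.7 with a median of 21.3. None carried a repeat name, which holds for all 58 peaks of the list in such regions, so this absence says nothing of these 7 peaks. They are counted among the 137 peaks in no repeat.

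The list gives the distance of each peak to the nearest start site, from which 2 start sites of Smok2a followed, at 55365010 (copy 1) and 56066765 (copy 2) of chromosome 1, both on the minus strand and 701755 bp apart. Both carry the same RefSeq transcript, and HILS1 peaks sat on or beside both. At copy 1 a promoter peak of 724 bp (chr1:55365056-55365780, fold 20.4) began 46 bp upstream of the start site, and a peak of 928 bp (chr1:55363705-55364633, fold 17.6) covered part of exon 2 of 3. At copy 2 a promoter peak of 1476 bp (chr1:56065995-56067471) covered the start site, and a peak of 2627 bp at the termination site (chr1:56063305-56065932) lay downstream of it. Both are segments of 1 called peak and share its fold of 21.3. In copy 1 the list places 15 further peaks in intron 2 of 2, over 89.0 kb, of which 1 was in LINE-1. In copy 2 it places none in an intron, and the termination site peak is centred 2.15 kb downstream of the start site. Whether the long intron of copy 1 is a correct placement of this transcript was not tested. Within 10 kb of the start sites there were 8 peaks with folds of 13.0 to 32.4 at copy 1 and 7 with folds of 14.8 to 21.3 at copy 2.

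**Figure D4:**
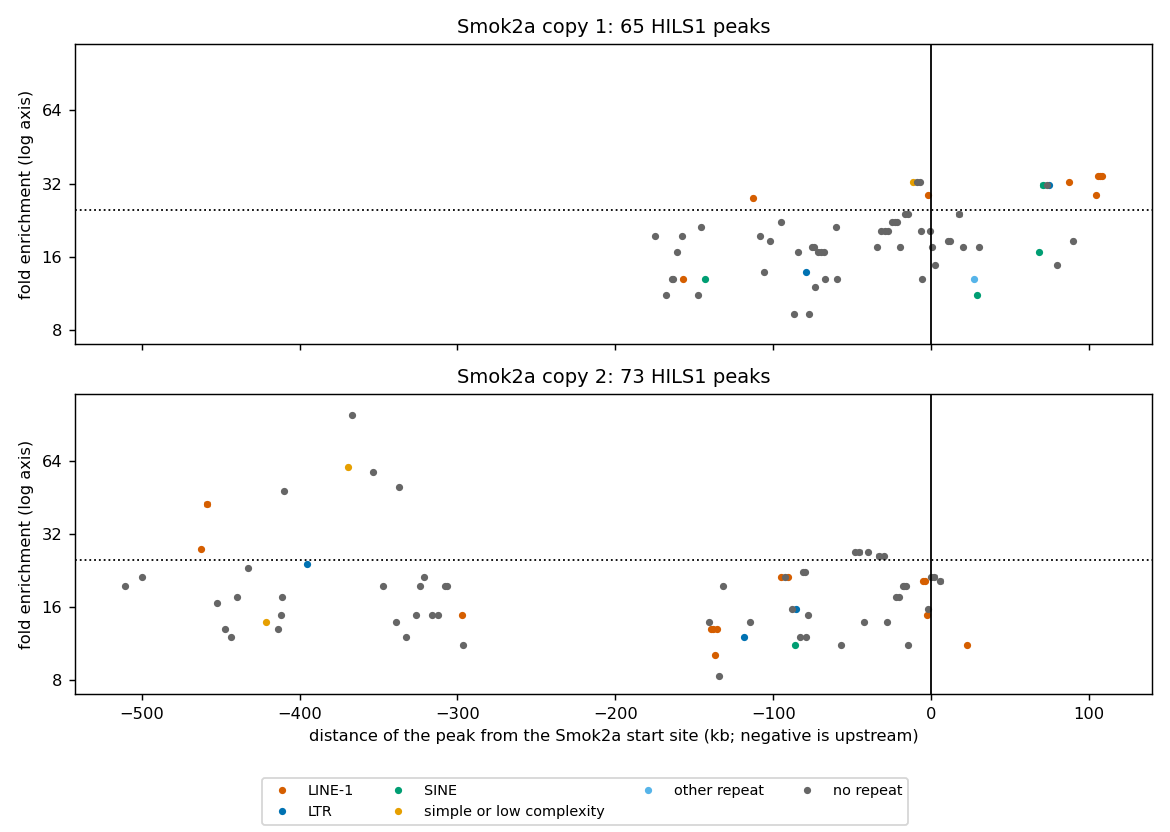
Fold enrichment (log axis) of the Smok2a peaks against their distance from the Smok2a start site of each copy (kb, negative upstream), coloured by repeat class; the dotted line is the list median of 25.0 and the vertical line the start site. Copy 1 has 45 peaks upstream and 20 downstream, copy 2 has 69 upstream and 4 downstream, and the 6 peaks over 40 all lie 337 kb or farther upstream in copy 2.

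Most Smok2a peaks lay upstream, 45 of 65 in copy 1 and 69 of 73 in copy 2. In copy 1 the highest folds were on the downstream side, where 11 peaks at 50 to 150 kb had a median of 31.5 and 5 of them were in LINE-1. Near the copy 1 start site, the 10 peaks in the first 20 kb upstream had a median of 24.1. These medians count every segment of a called peak, and segments share its fold. Among the 11 peaks are 3 segments with a fold of 34.3 and 3 with 31.5, and among the 10 are 3 with 32.4. By called peak, the folds of the 11 were 14.8, 16.7, 18.5, 28.7, 31.5, 32.4 and 34.3. Those of the 10 were 13.0, 17.6, 20.4, 20.4, 24.1, 28.7 and 32.4. At 50 to 100 kb upstream 14 peaks had a median of 16.7, and 13 of these were in no repeat. The lowest peaks of copy 1, both with a fold of 9.26, lay 77.3 kb and 86.8 kb upstream.

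In copy 2 the 9 peaks at 20 to 50 kb upstream had a median of 25.9, all in no repeat. The 9 at 100 to 150 kb upstream had a median of 13.0. They held the lowest Smok2a peak, with a fold of 8.33 and a false discovery rate of 23.2%. These medians too count every segment of a called peak. By called peak, the folds at 20 to 50 kb upstream were 13.9, 13.9, 17.6, 25.9, 26.9 and 26.9, with their middle between 17.6 and 25.9. With the start sites of both copies laid over each other, 17 of 41 copy 1 peaks (41.5%) from 22 kb downstream to 140 kb upstream overlapped a copy 2 peak, and 15 of 41 copy 2 peaks (36.6%) overlapped a copy 1 peak. Peaks covered 32.9% and 31.3% of the 2 stretches, so overlaps of this order say little of a shared layout. Reads that fit several places were not used by the authors, and how this bears on stretches that the copies share was not tested.

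The tallest Smok2a peaks lay in the remote part of copy 2, where 31 peaks lay over 290 kb upstream of the start site. The peak at 367 kb upstream (chr1:56432696-56434409) had a fold of 98.1, above 99.5% of the list. Beside it, at 369 kb, a peak of 2933 bp in a simple repeat of TGGA units had a fold of 60.2. The others over 40 were at 354 kb (57.4), 337 kb (50.0), 409.8 kb (48.2) and 458.8 kb upstream, the last with a fold of 42.6 in L1_Rn. The median was 19.4 (14.8 to 21.3) over all 31 remote peaks and 16.7 over the 25 with a fold under 40, against 17.6 over the 107 other Smok2a peaks. Of the 31, 25 were in no repeat. The farthest, with a fold of 19.4, lay 511 kb upstream. They are Smok2a peaks only by the nearest start site. Over both families 7 of 210 peaks (3.33%) had a fold of at least 40, against 7.45% of the list.

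In the Spetex-2 cluster the list gives 5 start sites at 3 places of rn5, all on the minus strand. In GRCr8 the promoter of Spetex2e is on the plus strand, at chr15:7244269-7244568. Those of Spetex2b and Spetex2f are on the minus strand, at chr15:5810076-5810375 and chr15:5460557-5460856. The builds thus differ in strand and spacing, and the positions below hold for rn5 only. Spetex-2F (9551070) and Spetex-2A (9551103) start 33 bp apart. A second Spetex-2A site (9716915) lies 33 bp from that of Spetex-2E (9716882), and the 2 pairs are 165812 bp apart. Spetex-2B starts between them, at 9593862. HILS1 peaks covered both paired places. At the first, a promoter peak of 2718 bp (chr15:9550675-9553393) with a fold of 27.8 covered both start sites and was the only peak there, with the next ones 5245 bp downstream of the Spetex-2F site and 10980 bp upstream of it. At the second, peaks of 621 bp (chr15:9716693-9717314) and 761 bp (chr15:9717443-9718204), both segments of a called peak with a fold of 28.7, lay over the start sites and upstream of them, and both are annotated to the promoter of another transcript, that of Spetex2d. The Spetex-2B start site had no peak over it. The nearest, in an intron, was 1665 bp upstream with a fold of 16.7. The 3 Spetex-2 promoter peaks had higher folds than the 2 Smok2a ones, 27.8 to 28.7 against 20.4 to 21.3, with 1 value per called peak and no measure of error.

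**Figure D5:**
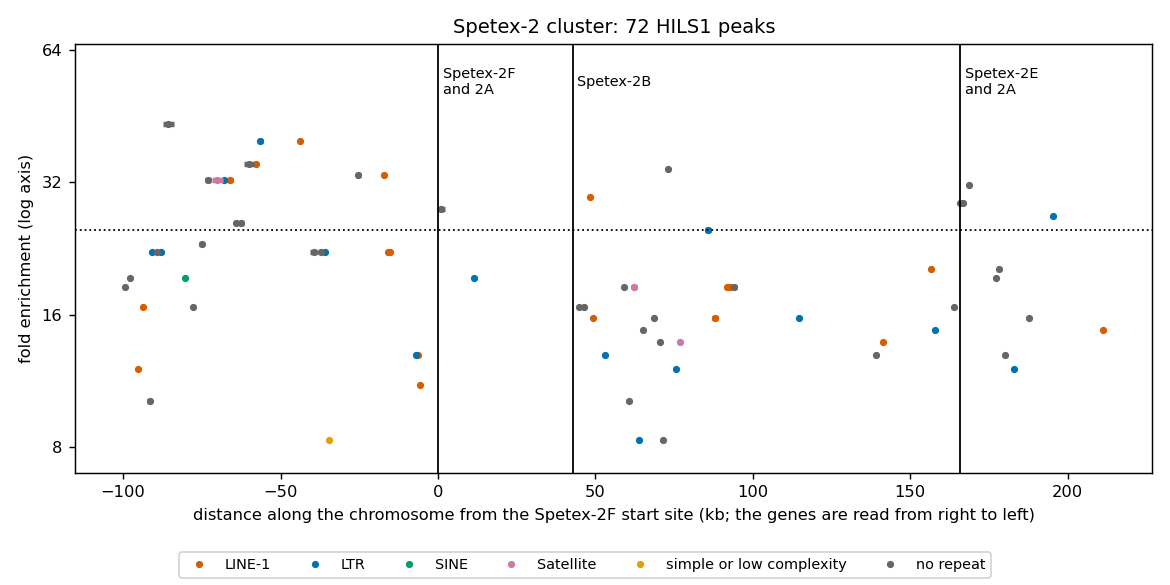
Fold enrichment (log axis) of the 72 peaks of the Spetex-2 cluster by their distance along chromosome 15 from the Spetex-2F start site (kb), coloured by repeat class, with horizontal strokes for peak length; vertical lines are start sites, and the dotted line is the list median of 25.0. At the left 10 of 21 peaks between -100 and -50 kb, from 5 called peaks, are above the list median, and none of 6 between 100 kb and the Spetex-2E start site is.

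Each name took the peaks of one side. All 33 Spetex-2F peaks lay downstream of the start site, at 5.80 to 99.4 kb, and all 21 Spetex-2B peaks upstream, at 2.06 to 51.3 kb. The 6 Spetex-2E peaks lay downstream of its site, at 1.90 to 51.0 kb. Spetex-2A had 10 peaks upstream of its second site and 2 upstream of the first. The names therefore mark stretches of the cluster more than separate genes. At 50 to 100 kb downstream of the Spetex-2F start site the median was 23.2, and 10 of 21 peaks were above the list median. These 10 came from 5 of the 14 called peaks there, and the median over the 14 was 20.8. The highest Spetex-2F peak, in this stretch, had a fold of 43.5 (chr15:9463820-9467121, 3301 bp, in no repeat), above 95.2% of the list, followed by peaks of 39.8 at 56.4 kb in the LTR ORR1A2 and at 43.7 kb in Lx2B. The lowest Spetex-2F peak, at 34.7 kb in a simple repeat, had 8.33.

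The Spetex-2B peaks had a lower median fold than the Spetex-2F peaks. Of the 21, 2 were above the list median, with folds of 34.3 at 30.1 kb and 29.6 at 5.46 kb upstream of the start site. The peak of 34.3 is in no repeat and that of 29.6 in Lx2B. A Spetex-2B peak of 2033 bp in RNLTR14-int had a fold of 25.0, the list median itself, and the 2 lowest had 8.33. At Spetex-2A the highest of the 12 peaks, with a fold of 31.5, lay 2.93 kb upstream of the second site, and the lowest, with 12.0, lay in RLTR14-int at 16.9 kb. The Spetex-2A peak farthest out, at 45.2 kb, was in L1_Mur3 with a fold of 14.8. The Spetex-2E peak nearest to its start site, at 1.90 kb, had a fold of 16.7, and the highest, with 20.4, was in L1_Mur3 at 9.21 kb.

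By transcript, 28 intronic peaks over 153 kb of rn5 were annotated to Spetex2e, 27 of them in intron 1 of 4 and 1 in intron 3 of 4. This stretch includes the Spetex-2B start site, and 21 of its peaks were named for Spetex-2B, 6 for Spetex-2E and 1 for Spetex-2A. Of the 28, 7 were in LINE-1 and 12 in no repeat. Another 12 intronic peaks, over 38.9 kb and nearest to Spetex-2F, were annotated to intron 2 of 3 of Spetex2h, with 6 in LINE-1. All Spetex-2B and Spetex-2E peaks were intronic, whereas at Spetex-2F 21 of 33 were intergenic. Since these stretches are annotated to one Spetex-2 gene and named for another, the assignment of their peaks to a gene is uncertain.

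No other gene of spermatids and sperm motility listed for comparison was the nearest gene of more than 8 peaks. Of these 40 genes 11 were nearest to any peak, with 39 peaks in all and a median of 4 per gene, against 3 over all genes with a peak. The share of 11 of 40 was not set against that of all genes, because the list names only genes with a peak. The LINE-1 share was 18.6% at Spetex-2 and Smok2a, against 36 of 39 peaks (92.3%) at these genes, whose median fold was 28.7. Spag6, a protein of the central apparatus of the axoneme, had 8 peaks, Camk4, a calmodulin-dependent kinase, had 7, and Akap4, an anchor protein of the fibrous sheath, had 5, all in LINE-1. Crem itself was nearest to 4 peaks, all in LINE-1 and at least 39.2 kb away. Spag16, another axoneme protein, held 12 peaks inside the gene and was nearest to 5. Gk2 had 4 peaks, Tnp2 (transition protein 2, of condensing spermatids) had 2, and Smcp, Tekt1, Acrv1 and Spata18 had 1 each. The nearest Tnp2 peak was 0.223 kb from its start site. The other 29 genes had none as the nearest gene, among them the testis kinases Tssk1b, Tssk2, Tssk3, Tssk4 and Tssk6, the sperm channel genes Catsper1, Catsper2, Catsper3 and Catsper4, the protamine genes Prm1, Prm2 and Prm3, and Hils1. Only peaks that passed the authors' calls in both replicates are in the list, so a gene without one is not shown to lack HILS1.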

How the data were processed

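HILS1 ChIP DNA (2 replicates) and Input DNA (1 library) were compared by the authors, and 1 peak list was deposited. According to the methods, the authors trimmed the reads, kept unique alignments to rn5 (Bowtie2), removed duplicates, ran MACS on each replicate with the input as control, kept shared regions of 100 to 4000 bp (bedtools) and annotated them with HOMER. The deposited fold enrichment is a linear ratio, the deposited score rises with the negative log10 of the p-value, and false discovery rates were deposited in percent. All 32731 deposited fold values were whole multiples of 0.926 within 0.02. Which replicate the values come from is not given in the sources used here. The read totals were not analysed here.

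Peaks were taken by the start of the gene name. Loci were runs of these peaks with gaps under 500 kb, and start sites followed from the position and distance of each peak. Shares have 95% Wilson intervals and medians have order-statistic intervals. No test was made, because the list holds no value per replicate. The scripts were tested on simulated data. The members, the gene lists and the comparison groups were chosen with earlier results of these data known. The peaks named were those in a promoter, an exon or at a termination site and, per gene, the 3 highest and 2 lowest by fold, the 2 longest, and the 2 nearest to and 2 farthest from a start site. The peaks with a fold of at least 40 were added later. Alternatives took 1 segment (the longest) per called peak, peaks with a fold of 16 or more, with a false discovery rate up to 10% or with a length of at least 500 bp, peaks under 6000 bp apart once, peaks inside a member gene, or peaks within 100 or 20 kb of the start site. Alternatives with each family alone, and without the Smok2a peaks over 290 kb upstream, were chosen after seeing the data. Names and promoters came from RefSeq tables (GRCr8). Computation used pandas 2.3.3, numpy 2.4.6 and scipy 1.17.1 under Python 3.11.15, and plots used matplotlib 3.10.9.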

Additional observations from a re-analysis of the deposited data

How the results depend on the processing

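Under 11 alternatives 45 of 66 values stayed within the 95% interval of the value reported or, for the number of peaks, within 1.5 times it. With a fold of at least 16, 134 peaks were left, with a median fold of 21.3 and a median length of 978 bp. At a false discovery rate no higher than 10%, the median fold was 20.4 and the length 1005 bp. Counting peaks under 6000 bp apart once left 43 peaks with a median fold of 24.1, because the highest peak stood for each group. Its interval of 21.3 to 31.5 holds the unmerged list median of 25.0. No list median under the same merging is given, so whether the lower fold holds there was not tested. Peaks inside a member gene numbered 62, with 50.0% in no repeat and 100% in an intron, exon, promoter or termination site by construction. Within 100 kb of the start site that last share was 40.8%, and within 20 kb 55.8%, with 52 peaks and a median length of 914 bp. Smok2a alone had 138 peaks, with 74.6% in no repeat and 13.8% in an intron, exon, promoter or termination site. Spetex-2 alone had 72 peaks, with 25.0% in LINE-1, 47.2% in no repeat and 59.7% in an intron, exon, promoter or termination site. The LINE-1 share moved only with Spetex-2 alone. The cause of the other shifts was not tested.

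No paired analysis was possible because the list gives 1 value per peak, not 1 for each replicate, and no test was made. No replicate was left out for the same reason, and the read depth behind each peak is unknown. Members were assigned by nearest start site on rn5, and reads that fit several places were left out.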
